A study of Mus musculus with 6 samples.

Results

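The 43 collagen chain genes with a value were followed in C3H-10T1/2 cells, an established mouse mesenchymal line that can become fat, bone or cartilage cells, after brown adipocyte differentiation with or without an inhibitor of the histone demethylase LSD1. They were chosen by name: every gene whose mouse symbol has the form Col, number, a, number, among the 22942 genes of the tables. A total of 49 RefSeq transcripts belonged to them, and the transcript with the highest mean stood for its gene. A further collagen gene of the reference table, Col12a1, could not be matched by accession and was not analysed here. The inhibitor, 611 or Cpd A, was given at 4 uM to 3 cultures, and 3 cultures given DMSO were the control. Both groups were otherwise treated alike and were collected at day 6. Differentiation began with 72 h in medium that held, with 10% serum, insulin at 20 nM, T3 at 1 nM, rosiglitazone and dexamethasone at 1 uM each, indomethacin at 125 uM and isobutylmethylxanthine at 0.5 mM, after which only serum, insulin, T3 and rosiglitazone were kept. The labels disagree on when treatment began: one says at seeding, another 12 h after it and 48 h before induction. All cultures came from 1 cell line, so the p-values measure the spread between these cultures.

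Collagens are the main structural proteins of the extracellular matrix, and each molecule is a helix wound from chains that are each encoded by their own gene. Fibrillar collagens build the banded fibres of connective tissue, type IV collagen forms the sheet of the basement membrane that surrounds each fat cell, and the other types link fibres, form beaded filaments or span the cell membrane. Fibroblast-like precursors make much fibrillar collagen, whereas maturing fat cells are wrapped in type IV and type VI collagen.

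Library totals, estimated from the low values as described under processing, lay between 3.88e+07 and 4.12e+07. Fat cell genes checked the label. Fabp4, the fat cell fatty acid binding protein, averaged 10946 ± 573 RPKM (reads scaled to transcript length and library size, SD, n = 3) in 611 cells and 21052 ± 790 RPKM in DMSO cells. Each of the 6 libraries listed Ucp1, which encodes the uncoupling protein typical of brown fat, at 0. Such a 0 throughout may be a value that was not estimated, so it does not show that Ucp1 was silent. Adipoq, the fat cell hormone adiponectin, averaged 975 ± 70.1 RPKM in 611 cells and 1366 ± 8.60 RPKM in DMSO cells, and Plin1, which coats lipid droplets, 289.9 ± 24.6 RPKM in 611 cells and 457 ± 16.5 RPKM in DMSO cells. Of 8 adipocyte markers, 7 could be tested and all 7 were lower with 611, beside 17.7% of all genes tested, or 28.7% after median-of-ratios scaling, although Fabp4 lost its call without a filter (limma adjusted p = 0.0549). Their summed level, which was mostly Fabp4, was between 14224 and 15752 RPKM in 611 libraries and between 27629 and 28938 RPKM in DMSO libraries. Their part in the collagen results was not tested, and in bulk RNA fewer cells of a type and less RNA per cell cannot be told apart.

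Of the 43 genes, 28 were tested, since 3 or more of their libraries reached 0.1 RPKM, and each of the 28 reached that level in at least 1 library of both groups. With 611, 15 of the 28 were higher and 5 were lower (limma over 13829 genes, Benjamini-Hochberg adjusted p below 0.05). These were 53.6% and 17.9% of the tested collagens, beside 41.6% higher and 17.7% lower among all genes tested, or 59.4% in either direction. The libraries of the groups did not overlap in 15 collagens that lay higher with 611 and 5 that lay lower, where 45.8% and 20.4% of all genes were so separated. Their median log2 fold change was 0.18, against 0.10 for all genes. All log2 fold changes are 611 minus DMSO on the log2(RPKM + 1) scale, and folds are ratios of mean RPKM. Scaling each library by the median of ratios moved the median of all genes by 0.11, to 0.00. After it 12 collagens were higher and 7 lower, with a median of 0.05, beside 28.5% higher and 28.7% lower among all genes. Collagens thus moved both ways, and they are described by class.

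**Figure D1:**
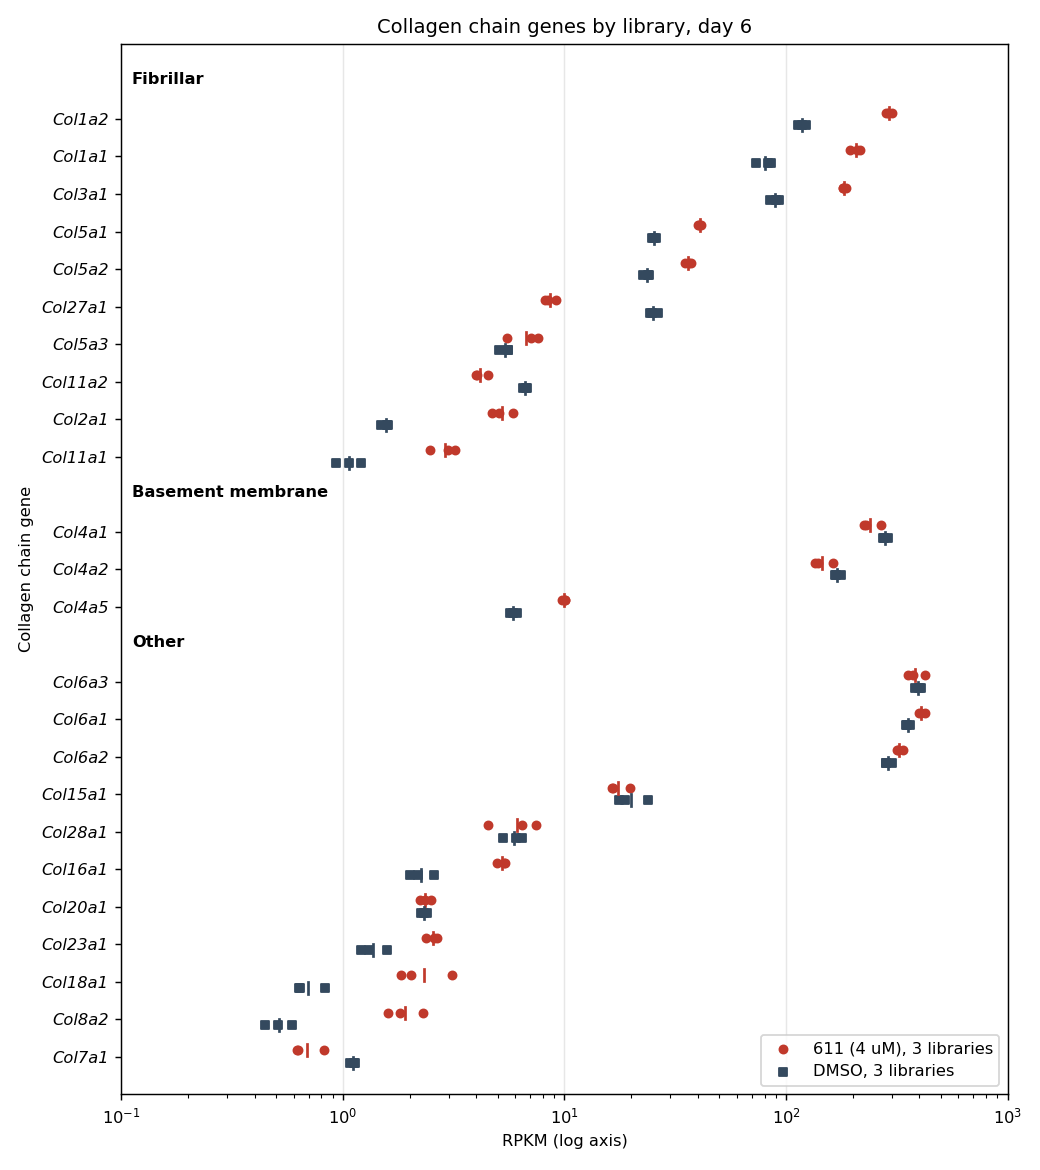
RPKM on a log axis for the 24 collagen genes with a group mean of at least 1 RPKM, by class, with 1 point per library and a short line at each group mean. The 611 points of Col1a1, Col1a2 and Col3a1 lie far to the right of the DMSO points, those of Col27a1 to the left, and those of the type VI chains close to them.

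The balance between the classes differed between the groups. Summed over its 11 genes, fibrillar collagen was at 784, 799 and 769.6 RPKM in the 611 libraries and at 376, 388 and 365 RPKM in the DMSO libraries, a ratio of group means of 2.08. The lowest 611 library was above the highest DMSO library by far more than the spread within either group. Basement membrane collagen, the 6 type IV genes, summed to 440.5, 379 and 369 RPKM with 611 and to 471, 449 and 449.8 RPKM with DMSO, a ratio of 0.87. The other 26 genes summed to 1218, 1122 and 1128 RPKM with 611 and to 1074, 1083 and 1067 RPKM with DMSO, a ratio of 1.08 that turned to 0.97 after median-of-ratios scaling. The fibrillar class thus made up 33.6 ± 1.35% of the summed collagen RPKM in 611 cells and 19.7 ± 0.433% in DMSO cells. The type IV share was 16.9 ± 0.960% in 611 cells and 23.9 ± 0.579% in DMSO cells, and the share of the other types was 49.5 ± 0.598% in 611 cells and 56.3 ± 0.412% in DMSO cells (SD, n = 3 each). Shares do not depend on the scaling of a library, and each of them separated the groups without overlap. With 3 libraries against 3 an exact two-sided permutation test cannot go below 0.10, and none was run on sums or shares. Collagens in all held 0.694 ± 0.0255% of the summed RPKM of all genes in 611 cells and 0.543 ± 0.00463% in DMSO cells.

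**Figure D2:**
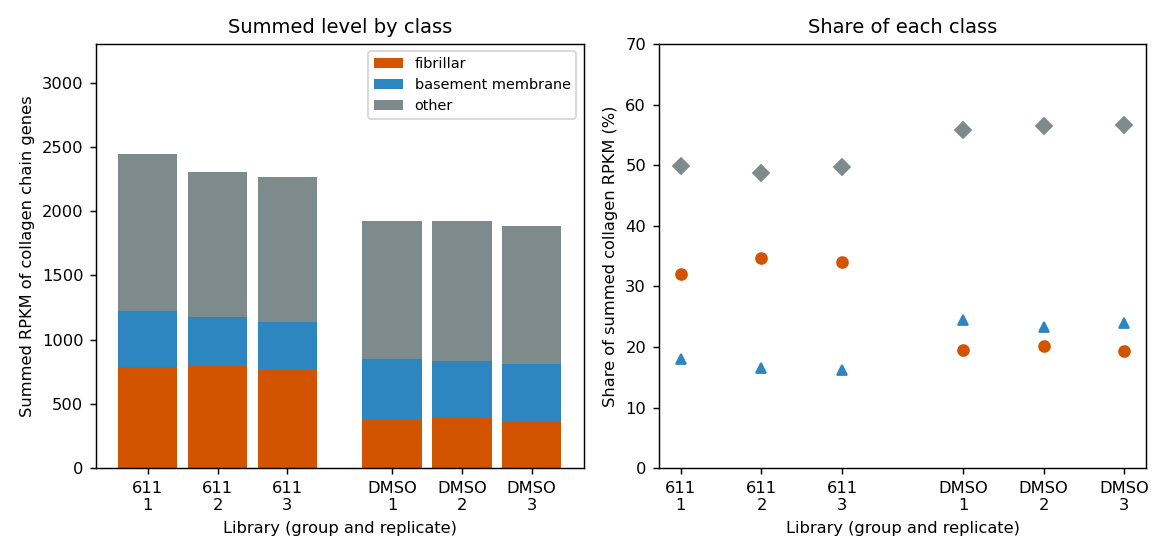
Left, summed RPKM of the collagen genes in each library, stacked by class; right, share of each class in that sum, in percent. The fibrillar share is between 32.1% and 34.7% in the 611 libraries and between 19.4% and 20.2% in the DMSO libraries.

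Few chains made up nearly all of the collagen RNA. The 8 most abundant genes, of types I, III, IV and VI, held 93.4 ± 0.279% of the summed collagen RPKM in 611 cells and 93.2 ± 0.195% in DMSO cells. With 611 the order began with Col6a1, Col6a3, Col6a2 and Col1a2, and with DMSO it began with Col6a3, Col6a1, Col6a2 and Col4a1. Col1a2 was rank 4 with 611 and rank 6 with DMSO, and Col4a2 was rank 8 with 611 and rank 5 with DMSO. The libraries of Col6a1 and Col6a3 overlapped with 611, yet Col6a1 was the higher within each library. The ratio of Col6a3 to Col6a1 was 0.999, 0.873 and 0.946 there, so the first library was nearly even. Col6a2 and Col4a1 changed order between the DMSO libraries, so their order there is within the spread.

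Type I collagen, the main fibre of bone, tendon and skin, rose in both of its chains. Col1a1, which encodes its alpha-1 chain, was at 208, 216 and 194 RPKM in the 611 libraries and at 85.4, 83.3 and 72.9 RPKM in the DMSO libraries. It rose 2.56-fold (log2 fold change 1.35, limma adjusted p = 9.6e-07). Col1a2, which encodes the alpha-2 chain, was at 288, 302 and 282 RPKM with 611 and at 118, 123 and 113 RPKM with DMSO. It rose 2.46-fold (log2 fold change 1.29, limma adjusted p = 2.8e-07). Every 611 library of both genes was above every DMSO library. The ratio of Col1a1 to Col1a2 was 0.709 ± 0.0196 in 611 cells and 0.682 ± 0.0423 in DMSO cells, and its libraries overlapped. In the type I molecule alpha-1 chains outnumber alpha-2 chains, whereas the RNA level per length of Col1a2 was the higher of the pair in both groups.

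Type III collagen, which shares fibres with type I in soft and elastic tissues, also rose. Its only gene, Col3a1, was at 182, 180.3 and 187 RPKM with 611 and at 84.7, 92.7 and 89.7 RPKM with DMSO, 2.06-fold higher (log2 fold change 1.03, limma adjusted p = 4.9e-07). The ratio of Col3a1 to Col1a1 was 0.890 ± 0.0668 in 611 cells and 1.11 ± 0.119 in DMSO cells, with no overlap and no test.

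Type V collagen is built into the core of type I fibres and limits their width. Col5a1 was at 40.6, 40.3 and 41.5 RPKM with 611 and at 24.9, 26.0 and 25.5 RPKM with DMSO, 1.6-fold higher (log2 fold change 0.66, limma adjusted p = 1.6e-06). Col5a2 was at 36.3, 35.0 and 37.1 RPKM with 611 and at 22.6, 23.8 and 24.0 RPKM with DMSO, 1.54-fold higher (log2 fold change 0.60, limma adjusted p = 4.9e-06). Both had all 611 libraries above all DMSO libraries. The ratio of Col5a1 to Col5a2 was 1.13 ± 0.0194 in 611 cells and 1.08 ± 0.0210 in DMSO cells, with no overlap and no test. Col5a3, a less common chain of this type, was at 7.56, 5.49 and 7.08 RPKM with 611 and at 5.57, 5.09 and 5.56 RPKM with DMSO. The groups overlapped, and its call was at the threshold (log2 fold change 0.26, limma adjusted p = 0.0498). The call ended after median-of-ratios scaling (adjusted p = 0.317), without a filter (0.0988), and without 611 replicate 1, 611 replicate 3 or any 1 DMSO library (0.0757 to 0.158), and its adjusted p ranged from 0.00175 to 0.317 over the alternatives. With the replicate number as a block it was 0.0115.

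The cartilage fibre genes split in direction. Type II collagen is the main fibre of cartilage and type XI is built into its core. Col2a1 was at 5.87, 5.09 and 4.71 RPKM with 611 and at 1.598, 1.49 and 1.59 RPKM with DMSO, 3.35-fold higher (log2 fold change 1.28, limma adjusted p = 2.5e-06). Col11a1 was at 2.48, 2.98 and 3.20 RPKM with 611 and at 0.934, 1.07 and 1.20 RPKM with DMSO, 2.71-fold higher (log2 fold change 0.91, limma adjusted p = 2.9e-05). Col11a2, the partner chain of Col11a1, went the other way, at 4.52, 3.97 and 4.04 RPKM with 611 and at 6.49, 6.78 and 6.74 RPKM with DMSO. It was 1.6-fold lower (log2 fold change -0.57, limma adjusted p = 5.2e-05). None of these 3 genes overlapped between the groups. The ratio of Col11a1 to Col11a2 was therefore 0.698 ± 0.130 in 611 cells and 0.160 ± 0.0175 in DMSO cells. Col27a1, a fibrillar chain with a short helix that is known from cartilage, was the largest fall among the collagens tested. It was at 9.18, 8.47 and 8.16 RPKM with 611 and at 26.4, 24.9 and 24.3 RPKM with DMSO, 2.93-fold lower (log2 fold change -1.45, limma adjusted p = 3.8e-07). Every 611 library was below every DMSO library. Of the tested collagens, 4 rose and 1 fell by at least 1 on the log2 scale, where 3.59% of all genes rose and 0.636% fell that far.

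Of the 8 chondrocyte markers beside the collagens, 4 could be tested, 3 were higher with 611 and 0 were lower. Here and in the lists that follow, 41.6% of all genes tested were higher and 17.7% lower. A higher marker, Matn3, was at 0.252, 0.242 and 0.300 RPKM with 611 and at 0.0342, 0.0919 and 0 RPKM with DMSO. It passed the filter of 0.1 RPKM only through its 611 libraries, so its call adds no support to the count. The summed level of the 8 chondrocyte markers was between 20.7 and 23.3 RPKM in 611 libraries and between 10.6 and 12.0 RPKM in DMSO libraries, most of it Sox9. Acan, the cartilage proteoglycan aggrecan, and Matn1 were listed at 0 in all 6 libraries. Of the 8 osteoblast markers 4 could be tested, 3 were higher and 1 was lower. The lower marker was Alpl, at 0.498 ± 0.0859 RPKM in 611 cells and 1.02 ± 0.0617 RPKM in DMSO cells (limma adjusted p = 4.2e-04). Summed, the osteoblast markers were between 49.997 and 55.1 RPKM with 611 and between 9.80 and 11.8 RPKM with DMSO, with Spp1 as the largest part. Sp7, the osteoblast factor osterix, averaged 0.0284 ± 0.0402 RPKM in 611 cells and 0.0220 ± 0.0381 RPKM in DMSO cells. Of the 4 tendon markers 3 were tested and all 3 were higher, where Mkx lost its call without 611 replicate 3 or DMSO replicate 1, with sums between 3.28 and 5.38 RPKM in 611 libraries and between 1.49 and 1.65 RPKM in DMSO libraries. Endothelial markers summed to at most 0.323 RPKM in 611 libraries and 0.232 RPKM in DMSO libraries, with Cdh5 and Kdr listed at 0. The only one tested, Tek, a receptor of vessel cells, was higher, at 0.254 ± 0.0216 RPKM in 611 cells and 0.0852 ± 0.0157 RPKM in DMSO cells (2.98-fold, limma adjusted p = 0.00747). Macrophage markers, of which 0 could be tested, summed to at most 0.0947 RPKM in 611 libraries and 0.0737 RPKM in DMSO libraries, with Ptprc listed at 0. Markers listed at 0 in all 6 libraries may hold values that were not estimated, so these zeros do not show that they were silent. The part of these cell type programmes in the collagen results was not tested.

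**Figure D3:**
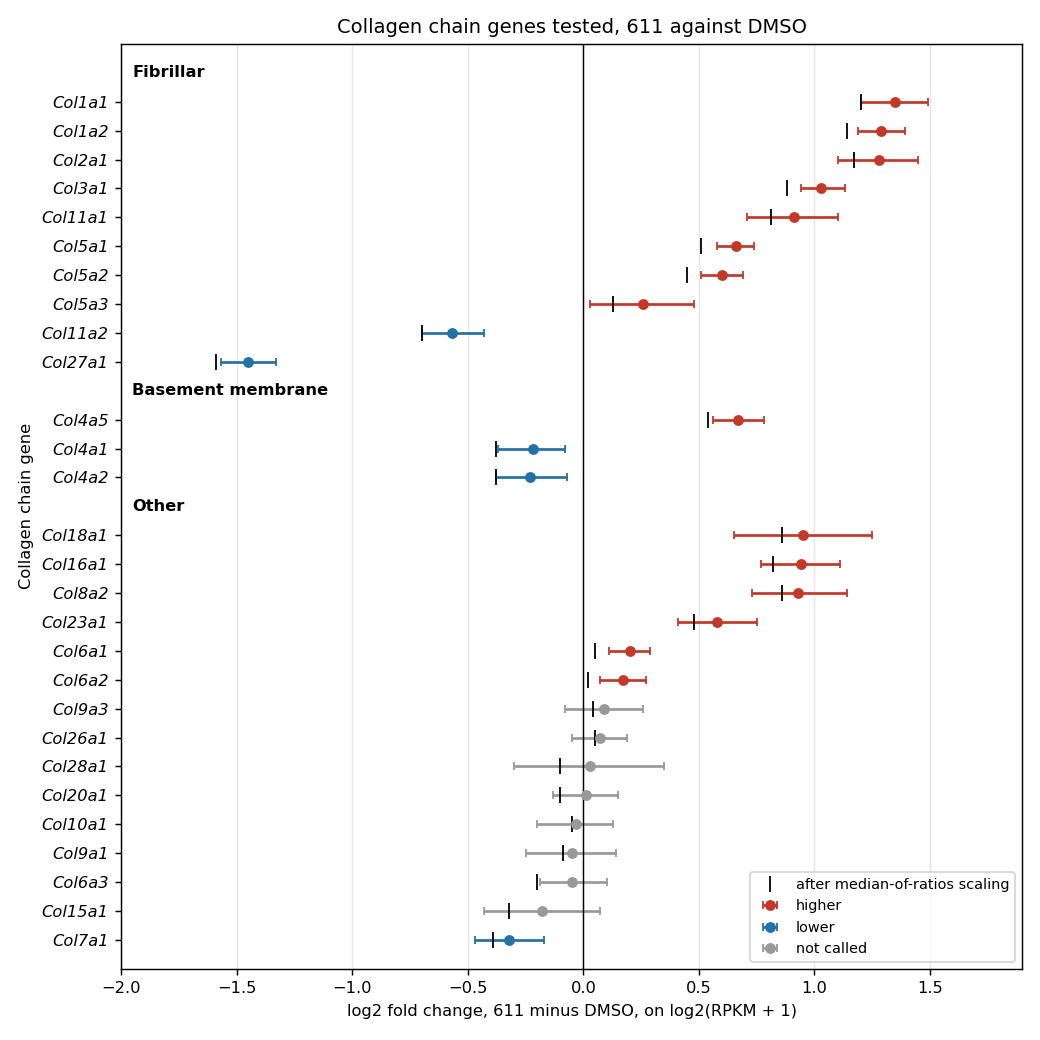
Log2 fold change, 611 minus DMSO, on log2(RPKM + 1) for the 28 collagen genes tested, with limma's 95% confidence interval, coloured by call; black ticks mark the value after median-of-ratios scaling. Of 10 fibrillar genes 8 were higher and 2 lower, while the type VI chains lie near 0.

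In all, of the 10 fibrillar genes tested 8 rose and 2 fell, beside 41.6% higher and 17.7% lower among all genes, so that the share that fell was near that of all genes. Their median log2 fold change was 0.78, or 0.66 after scaling, where Col5a3 lost its call. Their promoters were compared because genes of 1 fibre system moved together while others moved apart. RefSeq promoter entries (GRCm38.p6) were at hand for 35 of the 43 collagen genes. Shown are the 250 bases before the start site, 5′ to 3′, of Col1a2 (chr6:4505368-4505617) and Col3a1 (chr1:45311288-45311537), which rose, and of Col27a1 (chr4:63215162-63215411) and Col11a2 (chr17:34038888-34039137), which fell, all on the plus strand. Capitals mark the CCAAT box, the TATA box TATAAA and the GC box GGGCGG on either strand.
Col1a2: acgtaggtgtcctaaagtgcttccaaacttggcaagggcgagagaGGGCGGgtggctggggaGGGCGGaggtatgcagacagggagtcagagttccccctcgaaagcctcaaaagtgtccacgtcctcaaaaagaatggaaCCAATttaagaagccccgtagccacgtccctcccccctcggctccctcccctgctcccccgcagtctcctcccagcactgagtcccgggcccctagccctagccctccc
Col3a1: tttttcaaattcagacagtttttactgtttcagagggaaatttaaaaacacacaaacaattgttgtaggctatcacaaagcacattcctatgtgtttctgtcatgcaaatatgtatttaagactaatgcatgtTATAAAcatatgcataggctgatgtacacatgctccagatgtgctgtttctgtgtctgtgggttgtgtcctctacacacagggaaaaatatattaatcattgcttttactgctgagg
Col27a1: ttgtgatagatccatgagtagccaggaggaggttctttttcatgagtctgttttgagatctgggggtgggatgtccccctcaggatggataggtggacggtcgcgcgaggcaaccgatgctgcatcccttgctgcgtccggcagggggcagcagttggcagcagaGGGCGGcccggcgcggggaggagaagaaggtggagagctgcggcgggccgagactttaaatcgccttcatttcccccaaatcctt
Col11a2: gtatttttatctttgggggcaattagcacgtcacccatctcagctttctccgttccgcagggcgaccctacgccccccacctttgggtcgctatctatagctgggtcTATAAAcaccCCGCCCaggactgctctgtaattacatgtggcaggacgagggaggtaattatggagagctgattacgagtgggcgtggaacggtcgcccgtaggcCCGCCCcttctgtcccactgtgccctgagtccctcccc
The Col1a2 window held 1 CCAAT and 2 GC boxes and was 62.0% G or C, and the Col3a1 window held 1 TATA box, no other searched motif, and was 35.2% G or C. The Col27a1 window held 1 GC box, and the Col11a2 window held 1 TATA box and 2 GC boxes. Over 32851 promoter windows of the same length, 33.8% held CCAAT, 12.4% held TATAAA and 32.7% held the GC box. A CCAAT box was present in 6 of 12 collagens that rose and had an entry and in 3 of 5 that fell, TATAAA in 1 of 12 and 1 of 5, and GGGCGG in 10 of 12 and 4 of 5. A gene was counted if any of its entries held the motif, whereas the shares over all windows are per entry, so these are unlike measures. A match of letters is a description and not a site.

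Type IV collagen, the sheet-forming collagen of the basement membrane, was lower in its main chains and higher in a minor one. Col4a1 was at 267, 229.5 and 224 RPKM with 611 and at 289, 275 and 277 RPKM with DMSO, 1.17-fold lower (log2 fold change -0.22, limma adjusted p = 0.0161). Col4a2 was at 163, 139.6 and 135 RPKM with 611 and at 176, 168 and 167 RPKM with DMSO, 1.17-fold lower (log2 fold change -0.23, limma adjusted p = 0.0172). The groups did not overlap, but 611 replicate 1 lay close to the DMSO libraries in both genes. Both calls ended without 611 replicate 2, without 611 replicate 3 or without DMSO replicate 1, with adjusted p from 0.000511 to 0.0579 for Col4a1 and from 0.000516 to 0.0604 for Col4a2 over the alternatives. Col4a5, a chain of the type IV networks of kidney, skin and smooth muscle, was at 10.0, 9.79 and 10.1 RPKM with 611 and at 5.87, 5.66 and 6.12 RPKM with DMSO, 1.69-fold higher (log2 fold change 0.67, limma adjusted p = 6.4e-06). It stayed far below the main chains: its ratio to Col4a1 was 0.0417 ± 0.00384 in 611 cells and 0.0210 ± 0.000976 in DMSO cells. Col4a3, Col4a4 and Col4a6, the other chains of those networks, had values of at most 0.102 RPKM in any library and were not tested.

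Col4a1 and Col4a2 are neighbours on chromosome 8, where they are read in opposite directions from a shared promoter region. Their ratio was 1.65 ± 0.0132 in 611 cells and 1.64 ± 0.0123 in DMSO cells. The RNA of both chains thus kept nearly 1 proportion in all 6 libraries. Other collagen genes also lie side by side. Col3a1 and Col5a2, side by side on chromosome 1, both rose. Col6a1 and Col6a2, side by side on chromosome 10, both rose slightly, and their calls ended after scaling. Col4a5 rose beside Col4a6 on chromosome X, which was between 0.00368 and 0.0183 RPKM in the 611 libraries and between 0.00757 and 0.0155 RPKM in the DMSO libraries. Col9a1 was tested and not called beside Col19a1 on chromosome 1, which was read in 1 library of each group.

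**Figure D4:**
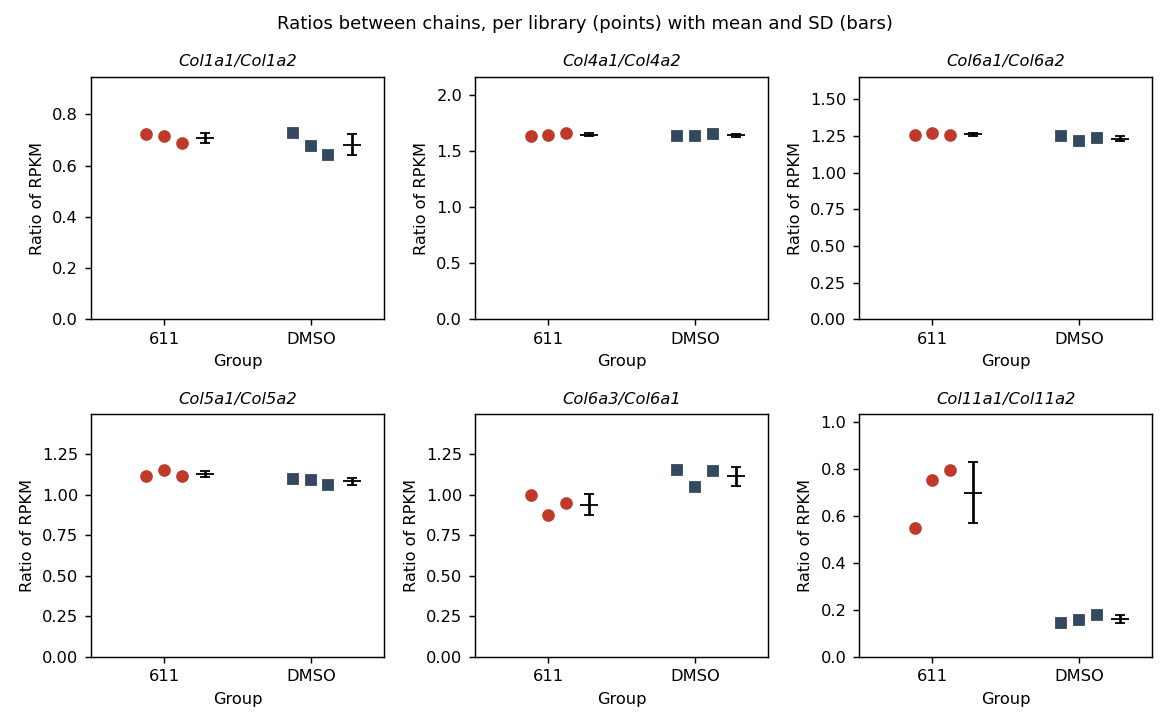
Ratio of RPKM between chains in each library, with the mean and SD of each group as bars (n = 3). The libraries of both groups overlap for Col1a1 to Col1a2 and Col4a1 to Col4a2, whereas Col11a1 to Col11a2 is 0.698 in 611 cells and 0.160 in DMSO cells.

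Type VI collagen, the beaded filament collagen that surrounds fat cells, was the most abundant in both groups and differed little. Col6a1 was at 422, 406 and 396.5 RPKM with 611 and at 353, 363 and 349.6 RPKM with DMSO, 1.15-fold higher (log2 fold change 0.20, limma adjusted p = 0.00287). Col6a2 was at 336, 319.96 and 316 RPKM with 611 and at 283, 299.9 and 283 RPKM with DMSO, 1.12-fold higher (log2 fold change 0.17, limma adjusted p = 0.00905). Both calls ended after median-of-ratios scaling, with log2 fold changes of 0.05 and 0.02 and limma adjusted p of 0.386 and 0.791. The ratio of Col6a1 to Col6a2 was 1.26 ± 0.00801 in 611 cells and 1.23 ± 0.0174 in DMSO cells, with no overlap and no test. Col6a3, whose chain has a long tail that can be cut off as endotrophin, was at 422, 354 and 375 RPKM with 611 and at 405.5, 381 and 400.1 RPKM with DMSO. It overlapped and did not pass the test (log2 fold change -0.05, 95% confidence interval -0.19 to 0.10, limma adjusted p = 0.566), but was called lower after scaling (-0.20, limma adjusted p = 0.0436; 0.0436 to 0.910 over the alternatives). The ratio of Col6a3 to Col6a1 was 0.939 ± 0.0635 in 611 cells and 1.11 ± 0.0579 in DMSO cells, without overlap and with no test. Col6a4, Col6a5 and Col6a6, the alternative chains in the place of Col6a3, were not tested. Col6a6 was at 0.0552, 0.0958 and 0.0379 RPKM with 611 and at 0.00725, 0.0177 and 0.0283 RPKM with DMSO. Col6a4 had 1, 2 and 0 reads with 611, and Col6a5 had 4 reads in 611 replicate 2, while both were listed at 0 in the DMSO libraries.

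Type XV and type XVIII collagens carry sugar chains at the rim of basement membranes. Col15a1 was at 16.5, 19.7 and 16.4 RPKM with 611 and at 17.6, 23.8 and 18.8 RPKM with DMSO. The groups overlapped and it did not pass the test (log2 fold change -0.18, 95% confidence interval -0.43 to 0.07, limma adjusted p = 0.186). Replicate 2 was the highest in both groups, and with the replicate number as a block it was called lower (limma adjusted p = 0.00731), as it was after scaling (0.0251), with a range of 0.00731 to 0.580 over the alternatives. Col18a1, the source of the fragment endostatin, was at 1.83, 3.12 and 2.02 RPKM with 611 and at 0.638, 0.828 and 0.632 RPKM with DMSO, 3.32-fold higher (log2 fold change 0.95, limma adjusted p = 2.9e-04). Every 611 library was above every DMSO library.

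Of the 8 FACIT collagens, whose interrupted helices bind to the surface of fibres, 4 were tested, 1 rose and 0 fell. Beside them, 41.6% of all genes tested were higher and 17.7% lower. Col16a1 was at 4.99, 5.31 and 5.40 RPKM with 611 and at 2.02, 2.59 and 2.17 RPKM with DMSO, 2.31-fold higher with no overlap (log2 fold change 0.94, limma adjusted p = 1.2e-05). Col20a1 was at 2.34, 2.50 and 2.22 RPKM with 611 and at 2.26, 2.40 and 2.34 RPKM with DMSO, and its interval ran from -0.13 to 0.15 (log2 fold change 0.01, limma adjusted p = 0.920). Of type IX collagen, which coats cartilage fibres, Col9a1 averaged 0.272 ± 0.124 RPKM in 611 cells and 0.317 ± 0.0965 RPKM in DMSO cells, and Col9a3 0.454 ± 0.122 RPKM in 611 cells and 0.365 ± 0.0668 RPKM in DMSO cells. Neither passed the test (limma adjusted p = 0.626 and 0.341). Col9a2, Col14a1 and Col19a1 were too low to test, and Col22a1 was listed at 0 in all 6 libraries.

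Of 2 network collagens tested 1 rose, the 1 membrane collagen tested rose, and the 1 anchoring collagen fell. Among all genes tested 41.6% were higher and 17.7% lower. Col8a2, of the lattice collagen type VIII found under the corneal endothelium, was at 1.61, 2.29 and 1.82 RPKM with 611 and at 0.511, 0.587 and 0.446 RPKM with DMSO. Its 3.70-fold rise was the largest ratio among the tested collagens (log2 fold change 0.93, limma adjusted p = 3.3e-05). Its partner chain Col8a1 was nearly absent, with a ratio to Col8a2 of 0.0124 ± 0.0144 in 611 cells and 0.0187 ± 0.0198 in DMSO cells. Col23a1, a collagen anchored in the cell membrane, was at 2.37, 2.67 and 2.58 RPKM with 611 and at 1.20, 1.58 and 1.32 RPKM with DMSO, 1.86-fold higher (log2 fold change 0.58, limma adjusted p = 1.8e-04). Col7a1, the anchoring fibril collagen of skin, was at 0.823, 0.628 and 0.622 RPKM with 611 and at 1.14, 1.08 and 1.12 RPKM with DMSO, 1.61-fold lower (log2 fold change -0.32, limma adjusted p = 0.00262). These 3 genes did not overlap between the groups. Col28a1 was at 6.44, 4.51 and 7.42 RPKM with 611 and at 6.02, 5.26 and 6.45 RPKM with DMSO, and did not pass the test (log2 fold change 0.03, 95% confidence interval -0.30 to 0.35, limma adjusted p = 0.893). Col10a1, of growth plate cartilage, averaged 0.109 ± 0.0951 RPKM with 611 and 0.132 ± 0.0352 RPKM with DMSO, and Col26a1 0.165 ± 0.0138 RPKM with 611 and 0.109 ± 0.0188 RPKM with DMSO, and neither passed the test (limma adjusted p = 0.717 and 0.259). The libraries of Col26a1 did not overlap, and it was called higher without a filter (limma adjusted p = 0.0264).

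The 15 genes that were not tested had at most 0.102 RPKM in any library. The limit that a count of 0 allows, 3 reads, ranged over these genes from 0.00721 to 0.0294 RPKM and covers counting error only. It is not meant for Col13a1 and Col22a1, which were listed at 0 throughout. Of the others, Col25a1 had 1 read in 611 replicate 3, and Col24a1 had 1, 0 and 2 reads with 611 and 0, 3 and 0 reads with DMSO. Col17a1, of the skin hemidesmosome, was at 0.0722, 0.0537 and 0.0405 RPKM with 611 and at 0.0285, 0.0371 and 0.0277 RPKM with DMSO.

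Making a collagen fibre needs hydroxylases, chaperones, proteases that trim the ends and oxidases that cross-link the chains, and a list of these genes was set beside the collagens. Of 21 tested genes that modify, fold or export collagen 14 were higher with 611 and 3 lower, where 41.6% of all genes were higher and 17.7% lower, with a median log2 fold change of 0.39, against 0.10 for all genes. After scaling 12 were higher and 4 lower, where 28.5% of all genes were higher and 28.7% lower, with a median of 0.26, and P4hb and P4ha2 lost their calls. Tmem38b, an ion channel gene of the endoplasmic reticulum, was at 3.84 ± 0.158 RPKM in 611 cells and 4.34 ± 0.226 RPKM in DMSO cells and did not pass the test (limma adjusted p = 0.0691), but was called lower after scaling (0.00339) and with the replicate number as a block (0.0429). Plod3, another lysyl hydroxylase gene, was not called (limma adjusted p = 0.136) except without 611 replicate 3, where it was higher (0.0274). P4hb, the shared beta chain of the prolyl hydroxylase, turned from a log2 fold change of 0.11 to -0.04 under it, and also lost its call without 611 replicate 1 or 3 or DMSO replicate 1 or 2 (limma adjusted p = 0.0568 to 0.0949). P4ha3, a prolyl hydroxylase chain, was at 5.46, 5.45 and 5.19 RPKM with 611 and at 1.79, 1.89 and 1.77 RPKM with DMSO, 2.95-fold higher (limma adjusted p = 8.8e-07). The largest rises after it were those of P3h3, of the prolyl 3-hydroxylase family, 2.01-fold to 11.3 ± 0.587 RPKM, of Fkbp10, a collagen chaperone, 1.94-fold to 46.7 ± 0.345 RPKM, and of Plod2, a lysyl hydroxylase that acts on the chain ends, 1.8-fold to 20.1 ± 2.67 RPKM in 611 cells (limma adjusted p between 8.8e-07 and 5.5e-05). The lower members were Plod1, the lysyl hydroxylase of the helix, 1.4-fold at 18.2 ± 0.399 RPKM in 611 cells against 25.4 ± 1.86 RPKM in DMSO cells, Mia2, an export factor, 1.25-fold at 15.2 ± 0.232 RPKM in 611 cells against 19.0 ± 0.217 RPKM in DMSO cells, and P4ha1, another prolyl hydroxylase chain, 1.17-fold at 13.6 ± 0.863 RPKM in 611 cells against 15.9 ± 1.45 RPKM in DMSO cells (limma adjusted p = 0.0321). The P4ha1 call ended without a filter and without 611 replicate 1, DMSO replicate 2 or DMSO replicate 3, with adjusted p from 0.0019 to 0.110 over the alternatives. Colgalt2 was too low to test. Mia3, an export factor for collagen that many secreting cells use, was listed at 0 in all 6 libraries and was not tested; a 0 throughout these tables may therefore be a value that was not estimated.

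All 6 tested genes of propeptide cleavage were higher, where 41.6% of all genes were, or 28.5% after scaling, with a median log2 fold change of 0.79, or 0.65 after scaling. Pcolce, which speeds the removal of the end of procollagen I, was at 137, 147 and 132 RPKM with 611 and at 53.9, 57.6 and 50.9 RPKM with DMSO, 2.56-fold higher (limma adjusted p = 5.7e-07). The protease gene Adamts2, which removes the other end, rose 2.26-fold, Bmp1, the protease that Pcolce helps, 2.01-fold, and Pcolce2 1.62-fold. Tll1, a protease of the Bmp1 family at 0.315 ± 0.0755 RPKM in 611 cells and 0.129 ± 0.0485 RPKM in DMSO cells, lost its call without replicate 2 of either group (limma adjusted p = 0.0633 and 0.0593). Of the 5 lysyl oxidase genes, whose enzymes cross-link collagen and elastin, 4 rose, beside the same shares of all genes, with a median of 0.93, or 0.84 after scaling. Lox was at 134, 162 and 146 RPKM with 611 and at 65.0, 71.6 and 67.6 RPKM with DMSO, 2.16-fold higher (limma adjusted p = 3.1e-06). Loxl4 rose 3.02-fold, Loxl1 2.40-fold and Loxl3 2.10-fold. Loxl2, at 2.08 ± 0.0937 RPKM in 611 cells and 2.14 ± 0.505 RPKM in DMSO cells, did not pass the test (limma adjusted p = 0.930).

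Of 6 tested genes for collagen receptors and uptake 5 were higher and 0 lower, beside 41.6% and 17.7% of all genes, with a median of 0.55, or 0.40 after scaling, where Itga1 lost its call (limma adjusted p = 0.106), as it did without a filter and without 611 replicate 1, 611 replicate 3 or DMSO replicate 2 (0.0656 to 0.094). Ddr2, a receptor kinase that binds fibrillar collagen, was at 60.1, 65.2 and 67.3 RPKM with 611 and at 20.6, 22.6 and 21.4 RPKM with DMSO, 2.98-fold higher (limma adjusted p = 2.8e-07). Mrc2, which takes collagen fragments into the cell, rose 2.63-fold to 30.8 ± 1.20 RPKM in 611 cells against 11.7 ± 1.15 RPKM in DMSO cells. Ddr1 rose 1.53-fold and the integrin gene Itgb1 1.44-fold. All libraries of these 4 genes were higher with 611 than with DMSO. Itga11 was at 0.331 ± 0.0674 RPKM in 611 cells and 0.214 ± 0.0226 RPKM in DMSO cells and did not pass the test (limma adjusted p = 0.083), but was called higher without a filter (0.0337).

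**Figure D5:**
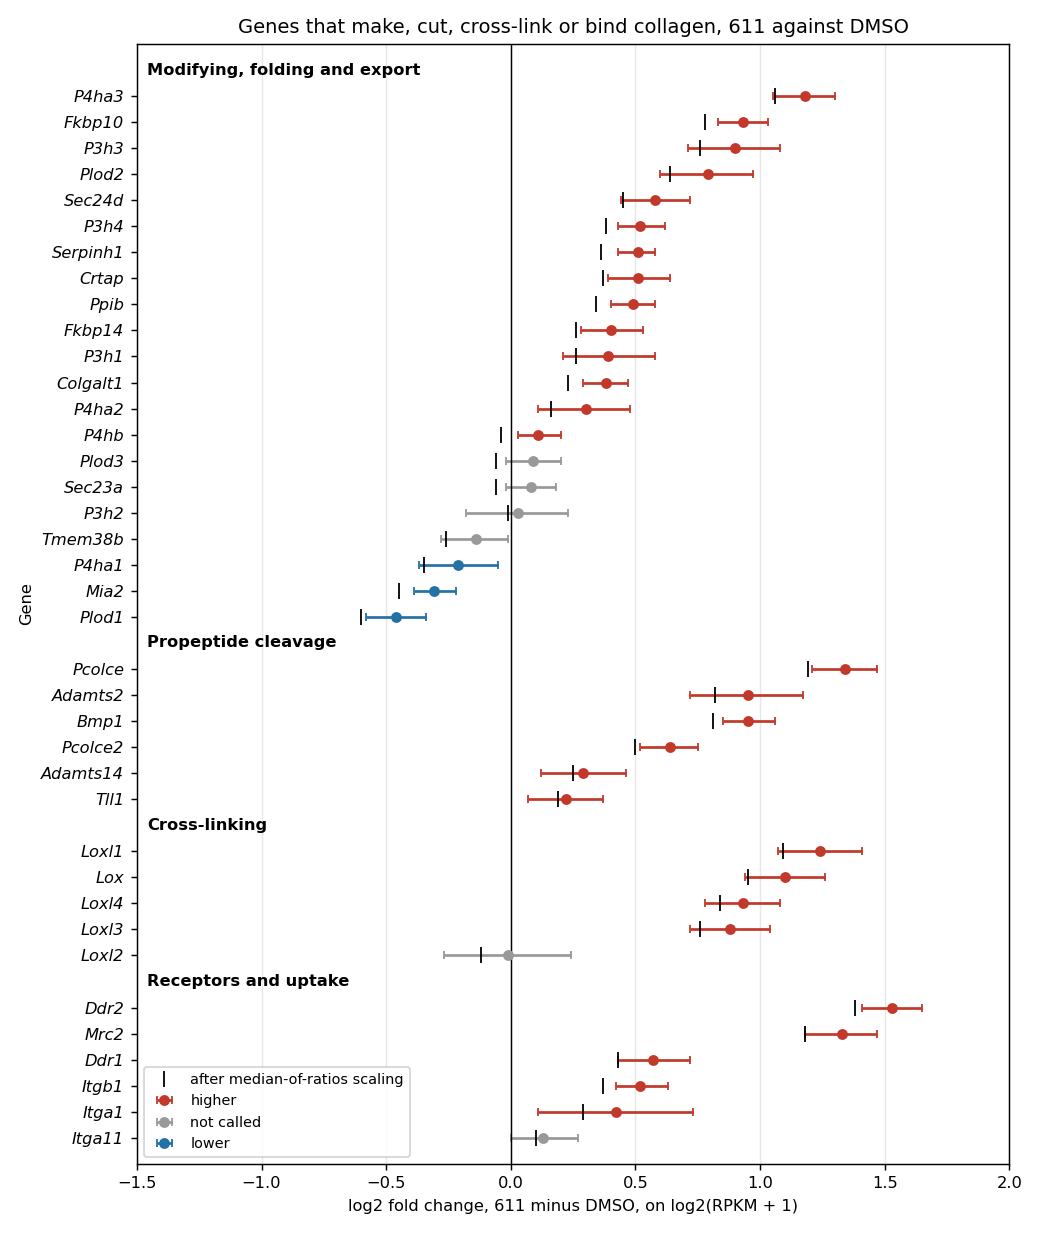
Log2 fold change, 611 minus DMSO, on log2(RPKM + 1) with limma's 95% confidence interval for the tested genes that make, cut, cross-link or bind collagen; black ticks mark the value after median-of-ratios scaling. All 6 propeptide genes and 4 of 5 lysyl oxidase genes lie to the right of 0 and were called, while Plod1, Mia2 and P4ha1 lie to the left.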

How the data were processed

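For each library the authors deposited RPKM values of 28430 RefSeq transcripts. Per the submitters' processing notes TopHat2 2.0.12, TopHat, SAMtools and build mm9 were used; the kit keeps strand, per the labels' protocols, but whether the counting used it, and the program that made the RPKM values, is not stated there. Of the accessions 27789 matched a symbol in a RefSeq table of GRCm38.p6, used for names and neighbours; the 641 others, with 1.50% of all RPKM, were kept under their accession. Low values were compared with whole reads at GENCODE M21 transcript lengths. Each library total is an estimate: the value, of many tried, at which the largest share of low values came out whole. At these totals between 46.6% and 49.1% of them were whole within 0.01 reads, where the median over all totals tried was at most 0.942%. As the totals were chosen by this share, the contrast is no test of them. Reads are printed for low collagens only where all 6 values were whole within 0.02 reads. Because 6 collagen genes had several transcripts that share reads, the highest transcript was used. Exons of 7 of the 24 collagens named with full values overlap another gene in that annotation, over at most 2.53% of their bases.

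limma 3.58.1 in R 4.3.3 with trend was fitted to log2(RPKM + 1) with group as the only term, over genes with at least 0.1 RPKM in at least 3 libraries, and p-values were adjusted over all of them by the Benjamini-Hochberg method; the steps were tested on simulated data. Alternatives were a pseudocount of 0.1, no filter, a filter of 1 RPKM, median-of-ratios scaling, the mean of transcripts, the replicate number as a block, and leaving out each library. Same-numbered libraries of the 2 groups deviated together from their group means, with correlations across genes of 0.30, 0.30 and 0.18. The numbers may thus pair the libraries. Unless the block is named, the p-values given come from the fit that leaves this pairing out. With the block, Col15a1 and Tmem38b gained a call. Members, classes and lists were chosen with earlier results of these data known. Collagens with a group mean of at least 1 RPKM are given library by library. Of the lists of genes that make, cut, cross-link or bind collagen, up to 4 called members at that level are given by ratio, and each that went against its list. The cell type markers did not follow this rule, and not every called marker is named. Genes given beyond these, the ratios of chains other than those of types I, IV, VI (Col6a1 to Col6a2) and VIII, and the promoters shown were chosen after values were seen. Itga10 and Cd68 were not analysed here.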

Additional observations from a re-analysis of the deposited data

How the results depend on the processing

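Of the 28 collagens tested, all 28 kept their direction and side of the threshold with a pseudocount of 0.1 and with the mean of transcripts, 27 with the replicate block, 26 without a filter and 21 after median-of-ratios scaling, where 3 lost and 2 gained a call and 2 that were not called, Col20a1 and Col28a1, turned from 0.01 and 0.03 to -0.10 each. After that scaling 3961 genes were lower in place of 2451, and the summed ratios of 611 to DMSO were 1.10 in place of 1.22 for all collagens, 1.88 in place of 2.08 for the fibrillar class, 0.78 in place of 0.87 for the basement membrane class and 0.97 in place of 1.08 for the others, which reversed. Of the 15 collagens tested in the other class, 6 were higher and 1 lower without any alternative, beside 41.6% and 17.7% of all genes. After scaling 4 were higher and 3 lower, beside 28.5% and 28.7% of all genes. With the replicate block 6 were higher and 2 lower. P4hb, higher by 0.11, reversed to -0.04 after scaling. Leaving out 1 library at a time left between 3 and 5 collagens lower and between 0 and 2 of the basement membrane class; the lowest counts came without 611 replicate 2, 611 replicate 3 or DMSO replicate 1, as Col4a1 and Col4a2 lost their calls. The cause of these differences was not tested. Genes under 0.1 RPKM, 15 collagens among them, are too shallow for a comparison.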
